A study of Mus musculus with 8 samples.

Results

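Large gaps without protein-coding genes were taken as the autosomal intervals of more than 500 kb between consecutive protein-coding genes of the RefSeq annotation of GRCm38.p6, trimmed by 50 kb at each side. Of 18498 intervals between consecutive protein-coding genes on the 19 autosomes, 585 met this rule. After trimming they covered 626.178 Mb of 2403.01 Mb, or 26.1% of the autosomal length. Before trimming the median gap was 871 kb wide, with a range of 501 to 4542 kb, and 246 gaps exceeded 1 Mb. The narrowest members lay between Spaca1 and Akirin2 (500.547 kb) and between Prok2 and Rybp (502 kb). The intervals just outside the threshold lay between Luzp2 and Siglech (499.265 kb) and between Srrm4 and Suds3 (499 kb).

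The assay was ChIA-PET for RNA polymerase II (Pol II) on mouse liver, in which crosslinked chromatin is pulled down with an antibody, DNA ends held in one complex are ligated through a linker, and a short tag from each side is sequenced as a paired-end tag (PET). The livers came from wild type C57BL/6 mice aged 3 to 6 months, kept with 12 h of light a day and free access to food, and killed at ZT06 or ZT18 (6 or 18 h after lights on). Chromatin of 3 to 7 livers was combined for each pulldown with the Pol II antibody 8WG16. Experiments 1 (JM08) and 3 (JM12) were crosslinked with 1.5 mM EGS, a crosslinker that joins proteins, and 1% formaldehyde, while experiment 2 (JM11) had formaldehyde alone. Experiment 1 held 2 libraries at each time point, and the other experiments held 1. The deposited table names the experiment and the linker of each PET but no library or time point, so day and night were not compared here. Each value below is for 1 experiment, with its day and night libraries combined, and there is no spread between replicates. Intervals are 95% and cover counting error only. The crosslinker and the experiment cannot be told apart, since formaldehyde alone was used in a single experiment.

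Experiments 1, 2 and 3 held 474478, 1438866 and 840210 PETs, with 195730, 714168 and 326125 ends in the gaps. The tissue was checked on 6 genes of hepatocytes, among them Alb, the gene of serum albumin, and Tat, an enzyme of tyrosine breakdown. PET ends over them were 9.98 to 95.6 times the nuclear mean in experiment 1, 1.32 to 11.8 times in experiment 2 and 3.82 to 14.3 times in experiment 3. Genes of other tissues, such as Myod1 of muscle and Gfap of astrocytes, had 0.342 to 1.45, 0.787 to 1.56 and 0.652 to 2.08 times the mean. The ranges overlapped in experiment 2, where Cps1, a urea cycle enzyme, lay at 1.32.

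Wide intervals without protein-coding genes are often called gene deserts. Many flank regulators of development, whose distant enhancers can lie within them, and others hold clusters of repeated gene segments or little that is annotated. Pol II gathers at promoters and enhancers and over transcribed genes, so ChIA-PET with a Pol II antibody enriches ends there, while ligation between unrelated complexes spreads ends over the genome. PETs with ends a few kb apart are taken to come largely from single fragments. PETs between chromosomes hold most of the chance ligation.

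The gaps were not empty of annotation. They held 2012 long non-coding RNA (lncRNA) genes in 507 gaps, 1720 pseudogenes in 495, 664 small RNA genes other than microRNAs in 295 and 114 microRNA genes in 50. Immune receptor segments, the pieces from which antibodies and T cell receptors are assembled, numbered 505 and lay in 3 gaps. No lncRNA gene was annotated in 78 gaps, and no non-coding gene of any kind in 7. The gaps took up 36.1% of chromosome 3 and 15.6% of chromosome 7, the highest and lowest shares.

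RefSeq promoters were at hand for 1752 starts of 1475 lncRNA genes in 457 gaps. The promoters of 5 of the lncRNA starts with the most PET ends are shown. Starts were ranked by the geometric mean over experiments of their density relative to the gaps, so not each was high in every experiment. The promoters shown are places in the gaps where an annotated start and PET ends met, and they differ in base composition. They run from 250 bases before the start to 50 after it (GRCm38.p6, RefSeq), 5′ to 3′ on the strand of the gene, and capitals mark each CG, the dinucleotide that is dense in CpG islands. CG reads the same on both strands and cannot overlap itself.
Dleu2, chr14:61682324-61682623, minus strand: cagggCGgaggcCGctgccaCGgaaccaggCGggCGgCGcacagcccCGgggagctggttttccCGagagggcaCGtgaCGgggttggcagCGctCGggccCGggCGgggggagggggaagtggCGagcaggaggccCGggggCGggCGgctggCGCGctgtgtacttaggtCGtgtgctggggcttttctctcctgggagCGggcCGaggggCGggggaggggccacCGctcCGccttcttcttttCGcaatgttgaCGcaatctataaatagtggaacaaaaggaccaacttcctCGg
Gm34507, chr17:4908072-4908371, plus strand: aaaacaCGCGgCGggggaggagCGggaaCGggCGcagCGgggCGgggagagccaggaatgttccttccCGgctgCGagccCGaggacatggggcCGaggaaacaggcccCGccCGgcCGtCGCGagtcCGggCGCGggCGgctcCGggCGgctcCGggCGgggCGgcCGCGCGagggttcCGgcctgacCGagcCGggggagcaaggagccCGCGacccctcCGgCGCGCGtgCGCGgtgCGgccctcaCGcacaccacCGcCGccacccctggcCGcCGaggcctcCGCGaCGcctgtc
5730522E02Rik, chr11:26210527-26210826, minus strand: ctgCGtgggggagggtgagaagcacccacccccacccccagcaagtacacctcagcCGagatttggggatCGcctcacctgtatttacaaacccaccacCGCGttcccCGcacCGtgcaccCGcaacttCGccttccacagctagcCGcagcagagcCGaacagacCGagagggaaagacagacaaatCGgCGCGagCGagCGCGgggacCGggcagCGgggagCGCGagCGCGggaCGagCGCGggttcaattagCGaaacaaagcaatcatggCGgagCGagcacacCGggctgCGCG
Gm34667, chr12:110023936-110024235, minus strand: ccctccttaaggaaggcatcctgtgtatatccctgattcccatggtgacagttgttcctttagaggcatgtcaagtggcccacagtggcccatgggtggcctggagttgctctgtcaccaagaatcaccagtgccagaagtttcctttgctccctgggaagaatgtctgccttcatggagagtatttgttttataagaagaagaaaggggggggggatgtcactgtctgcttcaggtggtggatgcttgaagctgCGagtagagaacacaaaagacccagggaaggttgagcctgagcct
Gm46885, chr4:80703400-80703699, plus strand: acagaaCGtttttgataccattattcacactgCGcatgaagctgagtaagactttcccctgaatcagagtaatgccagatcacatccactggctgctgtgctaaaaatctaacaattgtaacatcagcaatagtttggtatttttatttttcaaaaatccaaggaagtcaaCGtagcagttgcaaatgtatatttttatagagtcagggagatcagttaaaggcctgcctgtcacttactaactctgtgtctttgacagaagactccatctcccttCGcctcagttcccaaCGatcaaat
The first 3 hold 29, 49 and 33 CG, against 1 in the promoter of Gm34667 and 5 in that of Gm46885. Promoters with 10 or more CG made up 5.59% of the 1752 lncRNA promoters in the gaps, 21.6% of the 9556 other lncRNA promoters, 57.9% of the 20084 protein-coding promoters and 44.0% of all 31396 promoters in the table on the autosomes. The median promoter had 3 CG in the gaps and 14 at protein-coding genes.

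PET ends were thinner in the gaps than on the autosomes as a whole. The relative density, which is the share of read-1 ends in the gaps divided by the gaps' share of autosomal length, was 0.797 (0.793 to 0.802), 0.973 (0.971 to 0.976) and 0.755 (0.751 to 0.758) in experiments 1, 2 and 3. Each PET was counted once, by its read-1 end. As counts, 96038 of 462271 autosomal read-1 ends lay in the gaps in experiment 1, 355875 of 1403085 in experiment 2 and 161150 of 819410 in experiment 3. All 3 values lay below 1, and the one for formaldehyde alone was closest to it.

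PETs with close ends were thinner in the gaps than PETs between chromosomes. For PETs with ends at most 8 kb apart, the relative density in the gaps was 0.528 (0.520 to 0.536), 0.749 (0.739 to 0.759) and 0.622 (0.614 to 0.630) in experiments 1, 2 and 3. For PETs between chromosomes it was 0.879 (0.874 to 0.884), 0.989 (0.986 to 0.992) and 0.781 (0.777 to 0.785). The odds that an end lay in a gap were lower for the class within 8 kb than for PETs between chromosomes in each experiment, with odds ratios of 0.537 (0.526 to 0.547), 0.698 (0.686 to 0.710) and 0.758 (0.745 to 0.770). Two-sided Fisher's exact tests on read-1 ends gave a −log10 of the adjusted p of 951, 392 and 251 (Benjamini-Hochberg over the 3 experiments). These tests take PETs as independent draws, so they measure the counting error of these pools only. Seen from the gaps, 15.0% of PETs that began there in experiment 1 had both ends within 8 kb, against 24.7% of PETs that began in the rest of the autosomes. The corresponding shares were 4.81% against 6.75% in experiment 2 and 12.2% against 15.5% in experiment 3.

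PETs 8 to 100 kb apart were the class with the fewest ends in the gaps for their length. Its relative density was 0.0974 in experiment 1 (0.0580 to 0.153), from 18 of 709 read-1 ends. It was 0.466 in experiment 2 (0.349 to 0.606), from 48 of 395, and 0.168 in experiment 3 (0.135 to 0.207), from 85 of 1940. Between 100 kb and 2 Mb the values were 0.616, 0.903 and 0.493, and beyond 2 Mb on one chromosome 0.871, 0.980 and 0.774.

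**Figure D1:**
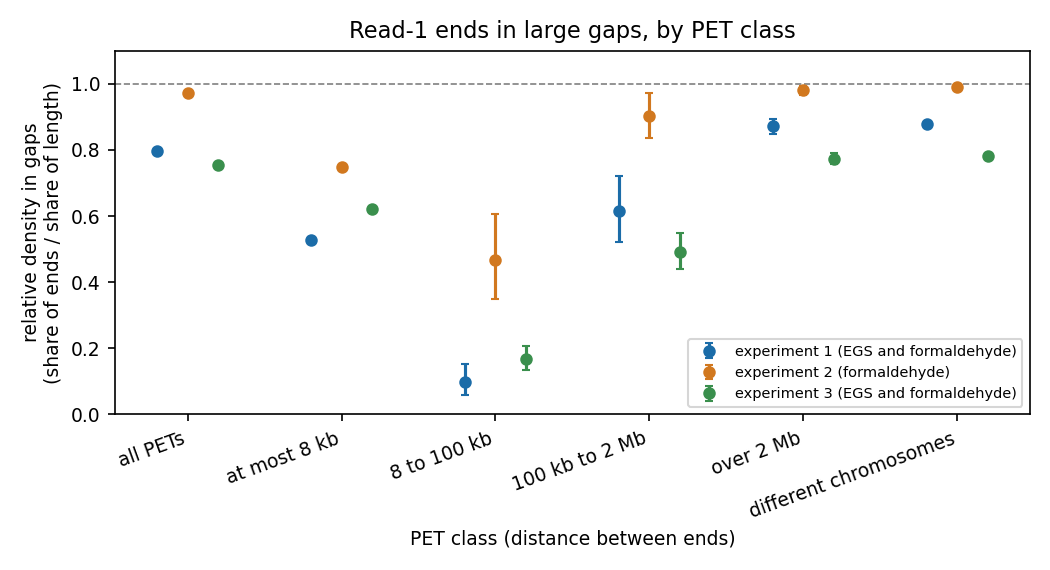
Relative density of read-1 ends in the 585 gaps (vertical axis, 1 is the autosomal mean) by PET class (horizontal axis) for the 3 experiments; bars are 95% intervals for counting error. The class of 8 to 100 kb lies lowest in every experiment, at 0.0974, 0.466 and 0.168, and experiment 2 lies highest in every class.

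The linker splits each experiment into subsets that need not match libraries. In experiment 1 the relative density of ends within 8 kb was 0.518 and 0.536 with the linkers marked ATGT and TAAG. In experiment 2 it was 0.721 and 0.767, and in experiment 3 0.624 and 0.621. The spread between linkers was smaller than the distance between the classes in every experiment.

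The change from gene to gap was sharp. In the first 10 kb beyond a protein-coding gene, the relative density of all read-1 ends was 1.22, 1.08 and 1.13 in experiments 1, 2 and 3. From 10 to 50 kb it was 0.788, 0.996 and 0.832, and from 100 to 250 kb 0.785, 0.986 and 0.813. Beyond 1 Mb it was 0.847 (0.831 to 0.863), 0.945 (0.935 to 0.954) and 0.668 (0.657 to 0.678). A single 10 kb bin, on chromosome 2 between Lrrc4c and Iftap, held 829 of the 10695 read-1 ends of that step in experiment 1. Without it, an alternative added after the data were seen, the values beyond 1 Mb were 0.782 (0.767 to 0.798), 0.896 (0.887 to 0.906) and 0.624 (0.614 to 0.634).

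Ends of PETs within 8 kb thinned out further with distance in all 3 experiments. From 10 to 50 kb they stood at 0.567, 0.781 and 0.736. Beyond 1 Mb they stood at 0.482 (0.457 to 0.509), 0.659 (0.627 to 0.692) and 0.451 (0.428 to 0.474). The steps beyond 1 Mb rest on the 65.6743 Mb of the 72 gaps over 2 Mb wide. Without the same bin they stood at 0.465, 0.654 and 0.445. PETs between chromosomes were at 0.954, 0.962 and 0.706 beyond 1 Mb, against 0.860, 1.01 and 0.849 from 10 to 50 kb. Without the bin they were at 0.878, 0.912 and 0.657 there, so the higher value of experiment 1 came largely from that bin.

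**Figure D2:**
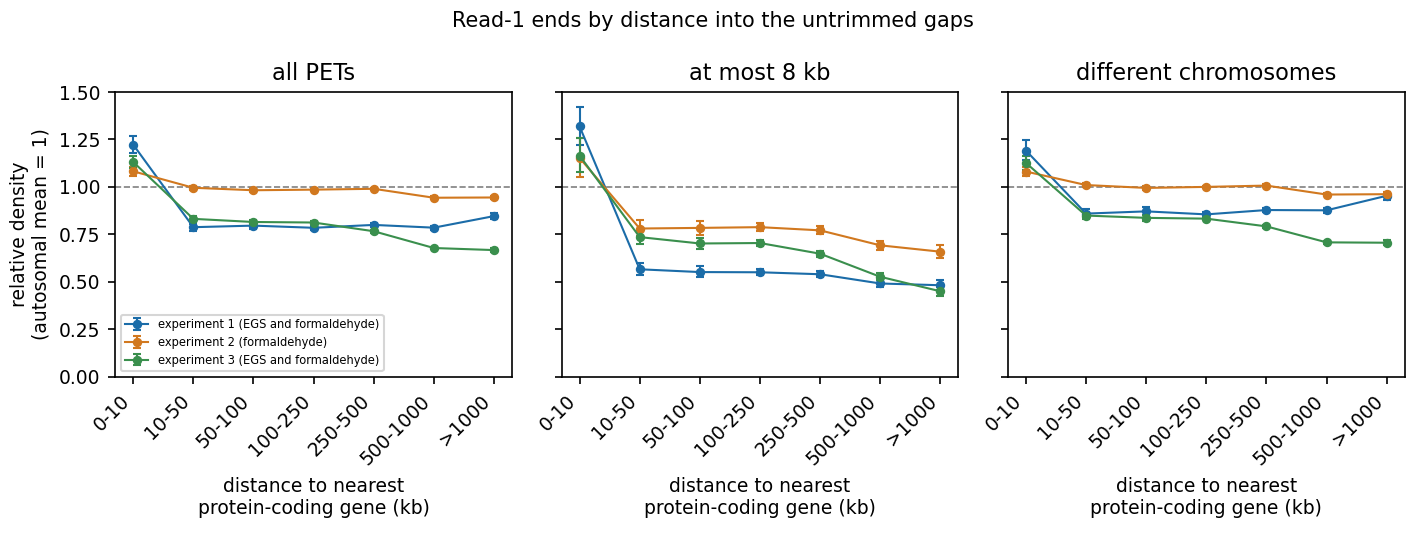
Relative density of read-1 ends (vertical axis, 1 is the autosomal mean) by distance to the nearest protein-coding gene in the untrimmed gaps (horizontal axis, kb), for all PETs, PETs within 8 kb and PETs between chromosomes; bars are 95% intervals for counting error. Only the first 10 kb lie above 1 in every experiment, and the class within 8 kb falls to 0.482, 0.659 and 0.451 beyond 1 Mb.

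Width followed the same order. In the 224 gaps of 500 to 750 kb, ends within 8 kb had a relative density of 0.597, 0.829 and 0.753 in experiments 1, 2 and 3. In the 72 gaps over 2 Mb they had 0.479, 0.664 and 0.493. For all PETs, experiment 3 went from 0.857 in the narrower to 0.667 in the wider group, and experiment 2 from 0.995 to 0.934, while experiment 1 had 0.786 and 0.808. Without the chromosome 2 bin the wider group had 0.788, 0.920 and 0.654 in experiments 1, 2 and 3, which left experiment 1 with nearly equal values in both groups.

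PETs with both ends in a single gap were set against shuffled partners. The expected number is the exact mean over all permutations of the read-2 ends among PETs of one experiment and linker, without PETs at most 8 kb apart. Between 8 and 100 kb, the gaps held 16 PETs in experiment 1 where 5.38 were expected, giving an observed over expected ratio of 2.98 (1.70 to 4.83). In experiment 2 they held 46 where 24.5 were expected, for a ratio of 1.88 (1.37 to 2.50). In experiment 3 the 74 PETs stood beside 8.34 expected, and the ratio was 8.87 (6.97 to 11.1). All 3 ratios lay above 1, so gaps held more PETs of this range than shuffled partners give. The shuffle takes no account of the distance between ends, so a ratio above 1 alone does not mark a specific contact. With a minimum distance of 4 kb in place of 8 kb, the ratios in the gaps were 4.95, 4.53 and 20.6.

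Outside the gaps the same ratios were far higher, at 27.9 (25.9 to 30.1), 4.45 (3.99 to 4.94) and 37.5 (35.8 to 39.3). The ratio outside exceeded that inside by 9.39, 2.37 and 4.23 times in experiments 1, 2 and 3. The adjusted p-values of a two-sided exact conditional binomial test were 9.03e-39, 3.07e-09 and 2.25e-52 (Benjamini-Hochberg over 6 tests). When protein-coding genes were also left out of the outside sequence, an alternative added after the data were seen, the ratios outside were 15.8, 4.21 and 32.6. They then exceeded those in the gaps by 5.31, 2.25 and 3.67 times, with adjusted p-values of 2.31e-12, 2.10e-05 and 2.63e-29. Other sequence without protein-coding gene bodies therefore had higher ratios than the gaps. It keeps the flanks of genes, while the gaps begin 50 kb from a gene, so the 2 are not alike in distance to genes. The 2 kb just upstream of protein-coding starts held 5.14, 1.60 and 3.44 times the PET ends of the gap mean.

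The excess over shuffled partners was also set per 100 PETs within 8 kb, a measure of the fragments pulled down. In the gaps it was 0.0736 (0.0261 to 0.143), 0.125 (0.0535 to 0.215) and 0.334 (0.253 to 0.430) in experiments 1, 2 and 3. Outside them it was 0.732 (0.676 to 0.791), 0.377 (0.327 to 0.432) and 1.77 (1.69 to 1.85). The intervals did not overlap in any experiment, so gaps also held less excess relative to their own PETs within 8 kb.

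Between 100 kb and 2 Mb the gaps differed less from the rest. The ratios in the gaps were 1.58 (1.22 to 2.01) in experiment 1 from 65 PETs, 1.15 (0.994 to 1.32) in experiment 2 from 203, and 1.45 (1.15 to 1.81) in experiment 3 from 81. Outside they were 1.67, 1.21 and 2.20. The difference passed the same exact test in experiment 3 (adjusted p = 0.000226), and missed it in experiment 1 (adjusted p = 0.702) and experiment 2 (adjusted p = 0.611), which does not show that the values were alike. Without protein-coding genes in the outside sequence, experiment 3 had 1.90 outside and an adjusted p of 0.0644 by the same exact test, while in experiments 1 and 2 the outside ratios of 1.43 and 1.10 lay below those of the gaps. The adjusted p of experiment 3 ranged from 4.88e-05 to 0.0644 over all alternatives of this exact test.

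**Figure D3:**
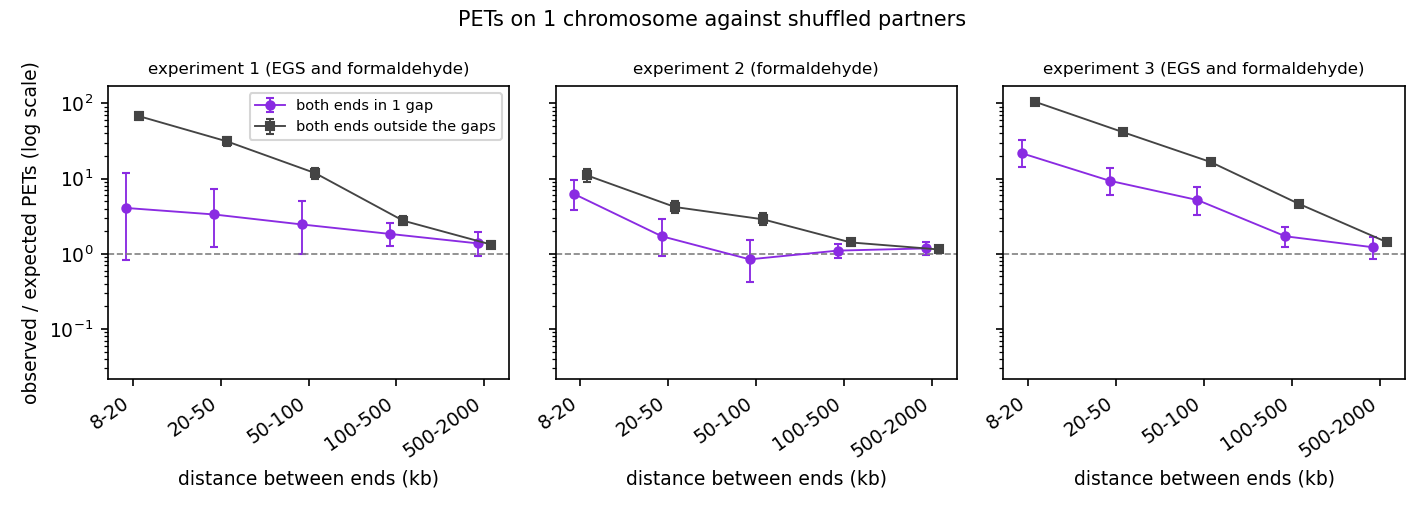
Observed over expected PETs (vertical axis, log scale, 1 is shuffled partners) by distance between ends (horizontal axis, kb), for PETs with both ends in 1 gap and with both ends outside the gaps, in each experiment; bars are 95% Poisson intervals. From 8 to 20 kb the gaps reach 4.08, 6.28 and 21.8 and the rest 67.7, 11.1 and 106, and from 500 kb to 2 Mb the intervals of both overlap.

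In narrower steps, the ratio in the gaps fell with distance in experiment 3, from 21.8 (14.1 to 32.2) at 8 to 20 kb over 9.39 at 20 to 50 kb to 5.20 (3.29 to 7.80) at 50 to 100 kb. Experiment 2 had 6.28 (3.89 to 9.60), 1.71 (0.937 to 2.88) and 0.845 (0.422 to 1.51) in the same steps, so no excess was detectable there beyond 20 kb. Experiment 1 held 3, 6 and 7 PETs in these steps, too few to order them.

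The PETs 8 to 100 kb apart were scattered over the gaps. They lay in 116 of 585 gaps, no gap held more than 3, and 15 gaps held 2 or more. None of the 136 PETs joined the same pair of 10 kb bins as another. Their median distance was 43.3 kb in experiment 1, 26.5 kb in experiment 2 and 35.2 kb in experiment 3. Both ends lay over annotated lncRNA genes for 2 of 16, 2 of 46 and 8 of 74 of them, and neither end did for 13, 35 and 54. Gap bins that overlap lncRNA genes numbered 8041 of 62041, a count of bins and not of pairs of ends. Whether the PETs favoured lncRNA genes was not tested.

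Of the gaps, 5 had 3 such PETs each. The gap between Pcdh7, a protocadherin, and G6pd2 had 1 in each experiment. That between Usp25, a deubiquitinase, and Cxadr, a cell adhesion protein and virus receptor, had 0, 1 and 2 in experiments 1, 2 and 3. That between Maf, a transcription factor of the bZIP family, and Dynlrb2, a dynein light chain, had 1, 0 and 2, and that between Adgrl2 and Adgrl4, adhesion receptors, had 0, 2 and 1. The gap between Lrrc4c and Iftap had 1, 2 and 0. With 1 or 2 PETs a gap in an experiment, these counts allow no order among the gaps.

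Between chromosomes, gap ends joined gap ends nearly as often as shuffled partners do. The ratios were 1.02 (1.01 to 1.04, from 18215 PETs), 1.000 (0.993 to 1.01, from 80632) and 1.01 (0.999 to 1.02, from 27382) in experiments 1, 2 and 3. The interval lay above 1 in experiment 1 alone.

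Single gaps ranged widely, with both ends of each PET counted. The relative density of a gap had medians of 0.815, 1.01 and 0.783 in experiments 1, 2 and 3, with ranges of 0.0329 to 2.13, 0.00309 to 1.72 and 0.0159 to 1.44. In all 3 experiments 278 gaps lay below the autosomal mean and 17 above it. For ends within 8 kb, 418 gaps lay below the mean in all 3 experiments and 8 above. Across the 585 gaps, whose base composition is the same in every experiment, Spearman's rho of the density was 0.691 for experiments 1 and 2, 0.598 for 1 and 3, and 0.853 for 2 and 3.

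**Figure D4:**
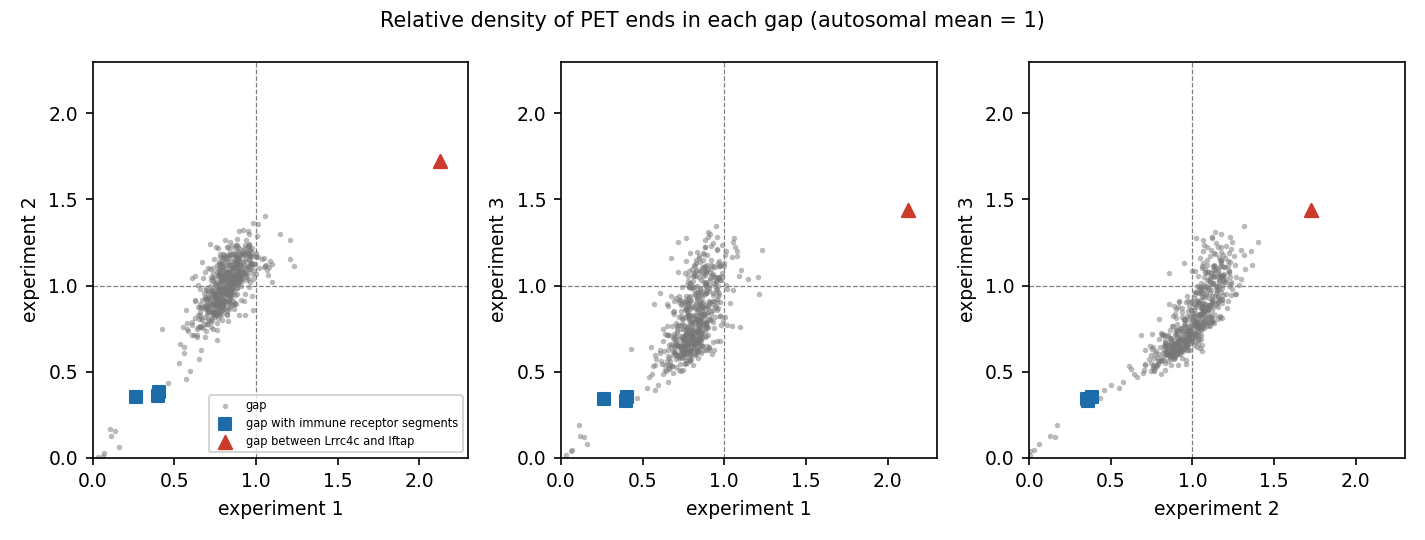
Relative density of PET ends in each of the 585 gaps (1 is the autosomal mean), for each pair of experiments on the axes; squares are the 3 gaps with immune receptor segments and the triangle is the gap between Lrrc4c and Iftap. The squares lie between 0.266 and 0.404 on all axes, and the triangle lies highest in every experiment, at 2.13, 1.72 and 1.44.

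The densest gap lay between Lrrc4c, a synaptic adhesion protein, and Iftap, a protein of cilia (chr2:97681673-101510778 after trimming). It held 3126, 7710 and 3759 ends in experiments 1, 2 and 3, a relative density of 2.13, 1.72 and 1.44. A single 10 kb bin held 67.6%, 52.7% and 62.5% of these ends. Without that bin the gap stood at 0.692, 0.817 and 0.542, below the autosomal mean in every experiment. Of the gap's 13 PETs 100 kb to 2 Mb apart, 12 had an end in that bin.

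The next densest gaps lay between 0.949 and 1.40 times the autosomal mean over the experiments. The gap between Pax1, a developmental transcription factor, and Foxa2, a pioneer factor of liver and other endoderm, had 269, 739 and 466 ends, or 1.23, 1.11 and 1.20 times the mean. Its PETs within 8 kb were also dense, at 1.45, 1.01 and 1.46, from 36, 21 and 42 PETs. Between Mtx2, a metaxin of the mitochondrial membrane, and Gm50595 the density was 1.05, 1.40 and 1.25. Between Gm6569 and Adgrb1, an adhesion receptor of brain, it was 0.949, 1.32 and 1.35, and between Npvf, a neuropeptide precursor, and Gm38821 it was 1.01, 1.36 and 1.20. These 4 gaps had no bin without an end. They held 0 or 1 PETs 8 to 100 kb apart each, too few to compare with other gaps.

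The least dense gaps with at least 100 ends had far fewer, and their bins were often without any end. Between BC048507 and Mtrr, an enzyme of methionine metabolism, there were 37, 42 and 33 ends, a density of 0.161, 0.0603 and 0.0811, and 23.7% of its 59 bins held no end in any experiment. Between the imprinted genes Ube3a, a ubiquitin ligase, and Snurf there were 25, 84 and 50 ends, a density of 0.114, 0.126 and 0.128. That gap holds 195 snoRNA genes, and 28 of its 56 bins were empty. Between Gm38656 and Scgb2a2, a secretoglobin, 23.6% of bins were empty, and between Gm12887 and Gm10573 68.4%. Over all gaps 590 of 62041 bins were empty (0.951%), against 2.55% of bins in the rest of the autosomes. The part of empty bins in the low densities of these single gaps was not tested bin by bin. Counting length over bins with an end moved the density of all gaps to 0.788, 0.962 and 0.746. Few bins are empty over all gaps, so those values say nothing about the least dense gaps.

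The 3 gaps with immune receptor segments were low in every experiment. The gap between Adam6a and Zfp386 holds 177 segments and had a density of 0.404, 0.384 and 0.352. The gap between Gm36448 and Dad1, a subunit of oligosaccharyltransferase, holds 167 and had 0.266, 0.355 and 0.339. Bins that overlap such segments had 0.494, 0.351 and 0.442 times the density of all gap bins. For PETs between chromosomes these bins had 0.524, 0.354 and 0.442, and for PETs within 8 kb 0.249, 0.341 and 0.411. How well tags can be placed in such segments was not tested. Of the bins in the gaps beside Adam6a and Dad1, 5.02% and 29.7% were empty.

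The 3 widest gaps lay between Pcdh20 and Pcdh9 (4542 kb), between Celf4 and Pik3c3 (4511 kb) and between Olfm4 and Pcdh17 (4420 kb). Pcdh9, Pcdh17 and Pcdh20 are protocadherins, cell adhesion proteins of the nervous system. The gap beside Pcdh9 had 1361, 4786 and 1872 ends, a density of 0.798, 0.923 and 0.618. It held no PET 8 to 100 kb apart in any experiment. The gap between Olfm4 and Pcdh17 had 0.812, 0.970 and 0.652, also without such a PET, and the gap beside Celf4 had 0.861, 1.10 and 0.822 with 1.

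Gaps beside listed genes were compared by their medians. The 68 listed developmental regulators bordered 50 gaps, and the median density of these gaps was 0.851, 1.12 and 0.906, beside 0.815, 1.01 and 0.783 over all 585. For PETs within 8 kb their median was 0.606, 0.853 and 0.809, beside 0.528, 0.766 and 0.630. Of the 50 gaps, 3, 39 and 18 lay above the autosomal mean in experiments 1, 2 and 3, beside 25, 304 and 114 of all 585. The densest by the mean over experiments bordered Lmo4, a LIM-only cofactor, with 0.982, 1.36 and 1.12, and Bcl11b, a zinc finger factor of T cells, with 0.955, 1.30 and 1.21. The gap between Irx2 and Irx4, both Iroquois homeobox factors, had 1.10, 1.12 and 1.09.

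Listed genes of liver or clock function numbered 88 and bordered 20 gaps, with median densities of 0.837, 1.05 and 0.901. For PETs within 8 kb the medians were 0.603, 0.867 and 0.728. Of the 20 gaps, 3, 12 and 7 lay above the autosomal mean in experiments 1, 2 and 3. Besides Foxa2, the densest bordered Gadd45g, a stress response gene, with 0.984, 1.07 and 1.23, and Id2, a helix-loop-helix inhibitor, with 1.00, 1.06 and 1.13. The gap beside Klf6, a zinc finger factor, had 1.01, 1.16 and 0.980, and that beside Foxo1, a forkhead factor of the insulin response, had 0.881, 1.12 and 1.11. These 20 gaps held 0, 0 and 2 PETs 8 to 100 kb apart, beside 16, 46 and 74 in all 585 gaps. The 50 gaps of the developmental list held 2, 3 and 7. Counts this small do not set either list apart from all gaps. Both lists were drawn up with earlier results of these data known.

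Bins of 10 kb stood out rarely. A bin was called when it held at least 5 times the median of gap bins, which was 3, 11 and 5 ends, in each experiment. This held for 5 of 62041 gap bins (0.00806%), against 145 of 240316 bins on all autosomes (0.0603%). At 3 times the median 7 gap bins passed (0.0113%), against 573 autosomal bins (0.238%). Leaving out experiment 2 raised the count at 5 times from 5 to 11, PETs with unshared read-1 positions gave 3, and bins of 25 kb gave 1.

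The called bins shared a narrow shape. Each had over 20% of its ends in 1 stretch of 100 bp, and none overlapped an annotated gene. The sequence of these bins was not at hand, so they were not searched for repeats. Whether their tags were placed uniquely was not tested. The bin in the gap between Lrrc4c and Iftap, chr2:98660001-98670000, had 2112, 4067 and 2348 ends, or 704, 369.7 and 469.6 times the gap median. Of PETs with their read-1 end in this bin, 51 of 829, 13 of 1905 and 19 of 1000 had both ends within 8 kb. These shares were under the 15.0%, 4.81% and 12.2% of all PETs beginning in gaps. Counted over PETs with either end in the bin, the share was 2.47%, 0.321% and 0.816%. The bin lies 1028 kb from Lrrc4c.

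The other called bins were much smaller, and 2 of them are described here. The bin chr12:74800001-74810000, 87.2 kb from the potassium channel gene Kcnh5, had 83, 120 and 80 ends, 35.7% of them in 100 bp. The bin chr3:56570001-56580000, 386 kb from Nbea, a protein of synaptic traffic, had 69, 97 and 69, with 73.2% in 100 bp. Both had at least 1 experiment in which no PET stayed within 8 kb, and neither had a PET 8 to 100 kb apart. At 3 times the median the added bins were narrow too. One overlaps the lncRNA gene Gm52332 between Zfp608 and Gramd3, and the other lies between Ldb2 and Qdpr, with 85.0% and 69.8% of ends in 100 bp.

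A rule on PETs within 8 kb, added after these values were seen, asked for at least 3 in each experiment. It called 2 gap bins (0.00322%) against 1222 autosomal bins (0.508%). One was the chr2 bin, with 51, 13 and 19 such PETs. The other was chr12:110020001-110030000, between Rtl1 and Dio3 at an imprinted locus and 249 kb from Dio3, an enzyme that inactivates thyroid hormone. It had 6, 3 and 3 such PETs among 23, 20 and 28 ends, 8.45% of them in the densest 100 bp, and it overlaps the lncRNA genes Gm34667 and Gm40574. The mean gap bin held 0.230, 0.273 and 0.314 such PETs, beside 0.509, 0.397 and 0.572 in the rest of the autosomes.

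Bins over lncRNA genes had a little more than the mean of gap bins. Over 8041 such bins the density of all read-1 ends was 1.07 (1.05 to 1.09), 1.10 (1.09 to 1.11) and 1.19 (1.18 to 1.21) in experiments 1, 2 and 3. For ends within 8 kb it was 1.20 (1.15 to 1.25), 1.21 (1.16 to 1.26) and 1.33 (1.29 to 1.38). The 50974 bins without an annotated gene stood at 1.000, 0.996 and 0.980. Bins over pseudogenes had 0.892, 0.902 and 0.929, and the 1215 bins over genes of the remaining class had 0.643, 0.592 and 0.639. That class mixes types and includes the 195 snoRNA genes between Ube3a and Snurf, so its value belongs to no single type. The 73 bins over microRNA genes had 1.16, 1.04 and 1.23, with lower limits of 0.970, 0.941 and 1.07.

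Around annotated lncRNA starts the rise was small. In the 2 kb just downstream of the 1752 starts, PET ends stood at 1.29, 1.24 and 1.49 times the gap mean, and 18 to 20 kb downstream at 1.07, 1.12 and 1.25. Over 20084 protein-coding starts, the same windows held 6.08, 1.75 and 3.70 times the gap mean close by, and 1.59, 0.991 and 1.62 farther out. Experiments 2 and 3 thus had values above the gap mean over the whole 20 kb on both sides of lncRNA starts. In the outer windows experiment 2 had 1.10 and 1.12, and experiment 3 had 1.20 and 1.25. Experiment 1 had 0.926 in the outer window upstream.

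**Figure D5:**
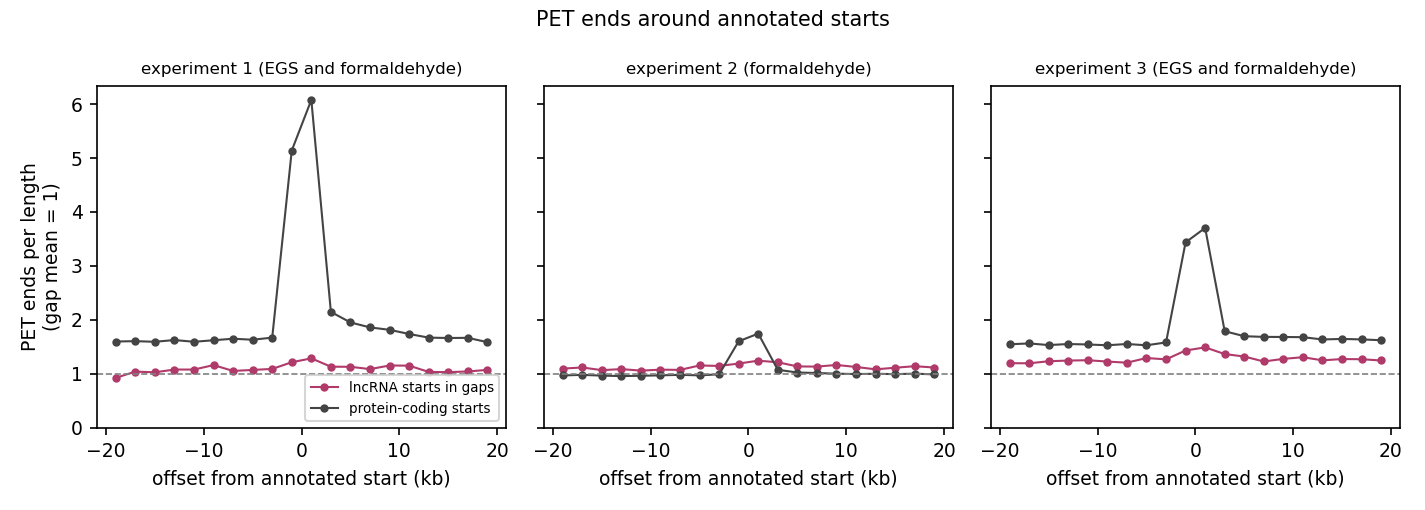
PET ends per length (vertical axis, 1 is the mean of the gaps) by offset from annotated starts (horizontal axis, kb, in steps of 2 kb, negative is upstream), for 1752 lncRNA starts in the gaps and 20084 protein-coding starts in each experiment. Protein-coding starts peak at 6.08, 1.75 and 3.70, and lncRNA starts in the gaps at 1.29, 1.24 and 1.49.

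A few lncRNA starts held many ends within 2.5 kb. Dleu2, a lncRNA that hosts microRNAs, had 31, 17 and 22 ends in experiments 1, 2 and 3, or 19.8, 2.98 and 8.45 times the gap mean, and 16, 5 and 4 of its ends belonged to PETs within 8 kb. Its start lies 69.5 kb from Kcnrg. Gm34507, between Nox3 and Arid1b and 86.0 kb from the nearer of them, had 30, 13 and 19 ends, with 22, 4 and 6 in the class within 8 kb. The third CG-rich promoter shown, of 5730522E02Rik between Bcl11a and Fancl, had 24, 9 and 9 ends, with 10, 0 and 0 in that class.

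Of the promoters shown that are poor in CG, that of Gm34667, in the bin between Rtl1 and Dio3 given above, had 23, 9 and 18 ends, with 12, 4 and 3 within 8 kb. Its neighbour Gm40574 starts less than 1 kb away on the other strand, so both starts share most of these ends. Gm46885, between Ptprd and Tyrp1, had 8, 23 and 13 ends and none of them within 8 kb.

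Lastly the lncRNA starts were split by the CG count of their promoters, a split added after the values above were seen. Ends were summed over starts, so an end near several starts was counted at each of them, and the intervals do not allow for this. For PETs within 8 kb, the 98 starts with 10 or more CG had 4.34 times the gap mean in experiment 1 (3.21 to 5.73). That value rests on a sum of 49 read-1 ends, and the 1654 other starts had 1.49 (1.32 to 1.67). Experiment 2 had 2.01 (1.33 to 2.93) against 1.42 (1.27 to 1.58), and experiment 3 had 2.21 (1.53 to 3.08) against 1.65 (1.497 to 1.81), with overlapping intervals in both. Without Dleu2, Gm34507 and 5730522E02Rik the CG-rich starts had 2.28 (1.48 to 3.37), 1.77 (1.12 to 2.66) and 1.94 (1.30 to 2.79). These 3 were picked for their many ends and left out of the CG-rich starts alone, so the values without them give a size and no comparison. For all PETs, the 98 starts had 1.78, 1.27 and 1.63 times the gap mean, against 1.19, 1.20 and 1.45 for the 1654 others.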

How the data were processed

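A single table was deposited by the authors for all 8 libraries, with 1 PET to a row and no header line. A row gives the experiment, the linkers, and the chromosome and position (bp) of each end. From the values, the deposited positions are whole numbers, and counts of PETs are counts of rows. Bowtie2 and mm10 are named, without a role, per the submitters' processing notes. Filters, the tag length and the treatment of duplicates were not given in the sources used here. Positions were read as mm10, the same coordinates as GRCm38, and set on RefSeq genes of GRCm38.p6. Gene rows that ended before the first PET position of their chromosome (335, of which 106 protein-coding) were left out, which left 20559 protein-coding genes. PETs with a mitochondrial end were set aside.

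From the positions, ends were counted in gaps, in 10 kb bins and by distance class, with exact binomial (Clopper-Pearson) or Poisson intervals and a normal interval on the log scale for odds ratios. The expectation under shuffled partners was counted from all pairs of ends. The counting was tested on simulated data. The scripts used Python 3.11.15, numpy 2.4.6, pandas 2.3.3 and scipy 1.17.1. Bins named were those called, gaps named were the 5 densest and 5 least dense with at least 100 ends, the 3 widest and the 5 with the most PETs 8 to 100 kb apart, and at most 5 gaps per list of neighbours. The gaps with immune receptor segments and the lncRNA starts were chosen after their values were seen. A few gaps and bins that the rule names are not reported here. The members and lists were chosen with earlier results of these data known. Other gap widths, trims, distances, thresholds and PET filters were tried.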

Additional observations from a re-analysis of the deposited data

Results flagged for a closer look

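PETs with a mitochondrial end belong to none of the comparisons, yet some had their other end in a gap. An experiment was flagged when it had more than 3 of them. Experiment 1 had 4 among 11 PETs between the mitochondrial chromosome and an autosome (10.9 to 69.2%). Experiment 2 had 2 among 13 (1.92 to 45.4%) and was not flagged. Experiment 3 had 394, which was 20.7% (18.9 to 22.6%) of its 1902 PETs between the mitochondrial chromosome and an autosome. Of all autosomal read-1 ends of experiment 3, 19.7% lay in the gaps, a value inside that interval.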

How the results depend on the processing

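The relative density of the gaps stayed below 1 under every alternative. With a gap minimum of 1000 kb it was 0.960 in experiment 2 and 0.713 in experiment 3, and with 250 kb it was 0.778 in experiment 3. Trims of 100 and 10 kb gave 0.748 and 0.760 in experiment 3. Length over bins with an end gave 0.788, 0.962 and 0.746 in experiments 1, 2 and 3, and leaving out called bins gave 0.791, 0.969 and 0.751. Unshared read-1 positions gave 0.803 in experiment 1. The odds ratios and the differences at 8 to 100 kb kept their direction and their side of the threshold throughout. From 100 kb to 2 Mb, leaving protein-coding genes out of the outside sequence turned the ratio of outside to gaps to 0.903 and 0.963 in experiments 1 and 2, neither past the threshold, and lowered it to 1.31 in experiment 3, which then missed the threshold. The called bins numbered 2 at 10 times the median, 3 with unshared read-1 positions, 11 without experiment 2 and 1 in bins of 25 kb. The causes of these moves were not tested.

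No paired analysis was possible because the table names no library, so the libraries that share replicate numbers are pooled, and for the same reason no replicate was left out. Depth limits the gaps most at 8 to 100 kb, where experiment 1 has 16 PETs.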
